A study of Homo sapiens with 7 samples.

Results

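Subtelomeric peaks are the peaks of chromatin immunoprecipitation (ChIP) libraries that lie close to the ends of the autosomes. They were taken by position alone: a peak belonged if it started within 2 Mb of the start of chromosomes 1 to 22, or stopped within 2 Mb of the last peak position of that chromosome. The start of chromosome 5, the end of chromosome 3 and the starts of the acrocentric chromosomes 13, 14, 15, 21 and 22 were left out, which gave 37 chromosome ends and 74 Mb. Of the 148917 peaks of 7 libraries, 6168 were subtelomeric, and the 138130 autosomal peaks outside every end window served for comparison. An end is called p where it is the start of a chromosome sequence and q where it is its end. Distances at p ends are counted from the start of the sequence. Those at q ends are counted from the last peak position, which can lie short of the true end.

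The cells were HT1080, a human fibrosarcoma line, transfected with a small interfering RNA that targets VRK1 messenger RNA (siVRK1) or with a control RNA (siControl). Libraries were made with an antibody to phosphorylated histone H2A pT120 (siVRK1 pT120, siControl pT120), to ubiquitylated H2A ubK119 (siVRK1 ubK119, siControl ubK119), to VRK1 (siControl VRK1 only), and from input DNA without precipitation (siVRK1 input, siControl input). Each was made once, from 1 cell line, and VRK1 was not profiled after siVRK1, so its loss is not checked here and no difference has a replicate check. Library totals ran from 20687398 reads for siControl pT120 to 40442651 for siControl ubK119, and 3 reads in a region were worth 0.0742 to 0.145 RPM, the read count scaled to library size. No test could be made between single libraries. The 95% intervals given cover counting error alone, and amplified reads that carry no molecular identifier are not separate molecules.

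The ends of human chromosomes carry telomere repeats, and the DNA next to them is a mosaic of segments duplicated between chromosomes, followed by stretches that are often rich in genes and in G and C. VRK1 is a nuclear kinase that binds chromatin and phosphorylates histones. H2A ubiquitylated at this lysine (ubK119) is placed by Polycomb repressive complexes and is known for gene silencing, and the threonine of pT120 is the next residue in the protein. Short reads cannot always be placed in duplicated sequence, and input DNA also gives peaks there, so each antibody is given beside input.

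Antibody peaks were denser near chromosome ends than elsewhere on the autosomes in 4 of 5 antibody libraries, and most of all for ubK119 after siVRK1. The siVRK1 ubK119 library had 1242 subtelomeric peaks, 16.8 per Mb (15.9 to 17.7) against 4.35 per Mb in other autosomal DNA, a ratio of 3.86 (3.64 to 4.09). The siControl ubK119 library had 1661 subtelomeric peaks, 22.45 per Mb against 9.69, a ratio of 2.32 (2.20 to 2.44). Each ratio compares densities within a library, whereas numbers of peaks also follow its depth and height minimum. VRK1 had 890 subtelomeric peaks, 12.03 per Mb against 5.88, a ratio of 2.05 (1.91 to 2.19).

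The pT120 libraries differed from each other. The siVRK1 pT120 list held 642 subtelomeric peaks, 8.68 per Mb against 15.2 elsewhere, a ratio of 0.573 (0.529 to 0.619). The siControl pT120 list held 238, 3.22 per Mb against 2.23, a ratio of 1.44 (1.26 to 1.64). The siVRK1 list was thus the longer but had the smaller part of its peaks near the ends. Of the autosomal siVRK1 pT120 peaks 1.53% (1.41 to 1.65) were subtelomeric, against 3.71% (3.26 to 4.20) of those of siControl pT120. For ubK119 the share was 9.16% (8.68 to 9.66) after siVRK1 and 5.80% (5.53 to 6.08) in siControl cells. Both pT120 ratios turn round among higher peaks: with a height of at least 20 reads, 45 siVRK1 and 15 siControl peaks remained, with ratios of 1.075 (0.7805 to 1.445) and 0.647 (0.3605 to 1.07), whose intervals include 1.

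Input DNA differed as well. The siVRK1 input had 975 subtelomeric peaks, a ratio of 1.801 (1.69 to 1.92) to other autosomal DNA, and the siControl input had 520, a ratio of 1.12 (1.03 to 1.23), which turned round to 0.988 (0.681 to 1.39) at a height of at least 20 reads and to 0.914 (0.826 to 1.01) without the end of chromosome 4 (4q) and the start of chromosome 9 (9p). The input ratio was thus higher after siVRK1, as was that of ubK119, while that of pT120 was lower over all peaks and, at a height of at least 20 reads, higher after siVRK1 with overlapping intervals. How far the input difference carries into the antibody libraries was not tested.

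Peak density changed with distance from the end. Within 0.5 Mb of an end, siVRK1 pT120 had 15.8 peaks per Mb, against 7.84 between 0.5 and 1 Mb and 5.54 between 1 and 2 Mb. The siControl pT120 density was 5.35, 2.97 and 2.27 peaks per Mb over the same steps, and that of VRK1 15.2, 13.5 and 9.70. The siControl input was also densest at the end, with 10.8, 7.68 and 4.81 peaks per Mb. Much of this course came from 4q, which held 129 of the 292 siVRK1 pT120 peaks within 0.5 Mb. Without 4q the siVRK1 pT120 densities were 9.06 (7.72 to 10.6), 5.89 and 5.69 peaks per Mb, and those of siControl pT120 4.22, 2.28 and 2.33. Those of VRK1 were then 11.6, 11.9 and 9.97. The siVRK1 input had 14.6, 11.3 and 10.9 peaks per Mb without 4q, and the siControl input 6.78, 6.39 and 4.94. The ubK119 libraries did not follow this course: siVRK1 ubK119 had 14.9, 16.5 and 17.9 peaks per Mb, and siControl ubK119 had 23.5, 23.6 and 21.4. Both were densest just beyond the window, at 21.2 and 28.8 peaks per Mb between 2 and 4 Mb, so their high density is not limited to the outermost 2 Mb. Just inside the limit, from 1.9 to 2 Mb, lay 66 siVRK1 and 106 siControl ubK119 peaks, and just outside, from 2 to 2.1 Mb, 77 and 77.

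**Figure D1:**
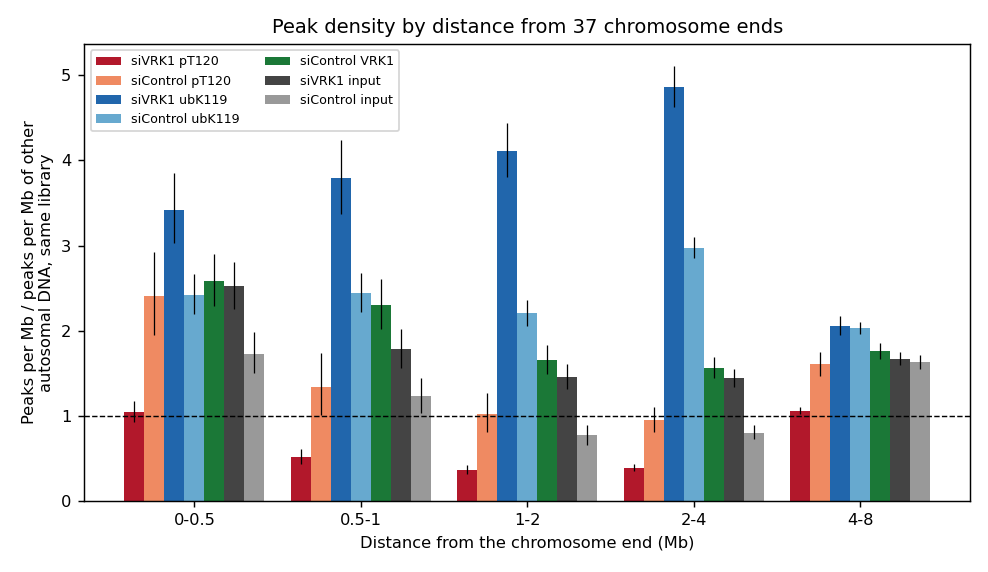
Peaks per Mb in 5 distance classes from the 37 chromosome ends (x axis, Mb), divided by the density of the same library in autosomal DNA outside every end window (y axis, dashed line at 1), with 95% counting intervals. The siVRK1 ubK119 bars stand above the others up to 4 Mb, and the siVRK1 pT120 bars are near 1 only in the outermost and innermost classes.

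Median lengths and heights of subtelomeric peaks were close to those elsewhere, but long peaks were fewer. Median lengths lay between 214.5 bp for siControl pT120 and 249 bp for siVRK1 ubK119, and median heights between 12 and 19 extended reads, within 1 read of the medians elsewhere. Peaks of at least 1 kb made up 1.46% (0.780 to 2.485) of VRK1 peaks near the ends, beside 3.24% elsewhere. Their share was 0.966% (0.5002 to 1.68) beside 2.505% for siVRK1 ubK119 and 0.843% (0.4615 to 1.41) beside 1.72% for siControl ubK119. Input DNA showed the same, with 1.23% (0.6375 to 2.14) beside 2.97% in siVRK1 and 0.9615% (0.313 to 2.23) beside 2.83% in siControl cells. For pT120 the intervals included the share elsewhere, with 13 long siVRK1 peaks at 2.025% (1.08 to 3.44) beside 1.72% and 3 long siControl peaks at 1.26% (0.261 to 3.64) beside 3.125%.

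A few ends held many of the peaks. The end of chromosome 4 (4q), which carries a macrosatellite repeat array and has near copies elsewhere in the genome, had the most peaks in 6 of 7 libraries, all but siVRK1 ubK119. It had 168 siVRK1 and 37 siControl pT120 peaks, 49 siVRK1 and 163 siControl ubK119 peaks, 108 VRK1 peaks, and 115 and 105 peaks in the siVRK1 and siControl inputs. Between 2 and 4 Mb from the same end there were 0 to 2 peaks in each library. In the siVRK1 pT120 list, 4q, 9p (91 peaks) and 12p (51) held 48.3% of all subtelomeric peaks. The start of chromosome 9 stood out by library: it had 91 siVRK1 and 3 siControl pT120 peaks, 24 siVRK1 and 151 siControl ubK119 peaks, 13 VRK1 peaks, and 22 and 15 input peaks. None of the 91 siVRK1 pT120 peaks at 9p overlapped an input peak, whereas 57 of the 168 at 4q did. Of the siControl ubK119 peaks 6 of 151 overlapped an input peak at 9p and 91 of 163 at 4q. The 9p peaks ran on beyond the window, with 129 siVRK1 pT120 and 95 siControl ubK119 peaks between 2 and 4 Mb. Without 4q and 9p, the density ratio of siVRK1 pT120 was 0.361 (0.326 to 0.399) and that of siControl pT120 1.27 (1.10 to 1.46).

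Other ends led for the remaining libraries. The 3 ends with most siVRK1 ubK119 peaks were 10q with 99, 13q with 96 and 7q with 91, and in the siControl ubK119 list 4q with 163, 9p with 151 and 7q with 133. For VRK1 they were 4q with 108, 13q with 86 and 19q with 56, and for siControl pT120 4q with 37, and 4p and 13q with 22 each. The end 19q, with 56 VRK1 peaks, had 12 siVRK1 and 9 siControl ubK119 peaks, while the inputs had 67 and 40 there. At the other extreme, 1q had at most 2 peaks in any antibody library, 18p at most 4 and 15q at most 6. At the start of chromosome 3, 12 siVRK1 pT120 peaks stood against 0 in the siControl pT120 list, and VRK1 had 0 and ubK119 1 and 3. Numbers per end thus varied widely, while the median end had 7 siVRK1 and 4 siControl pT120 peaks, 29 and 34 ubK119 peaks and 19 VRK1 peaks.

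**Figure D2:**
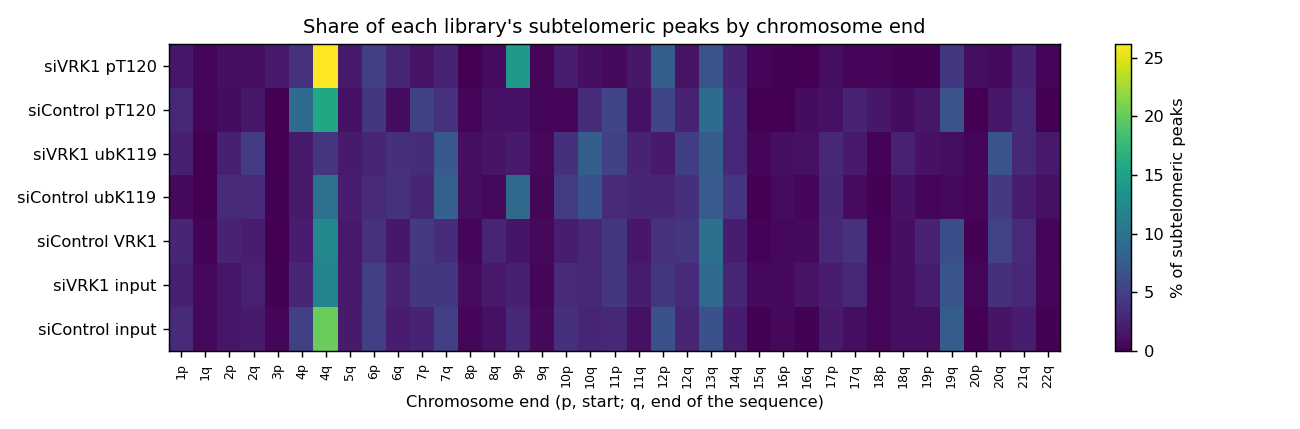
Share of each library's subtelomeric peaks (colour, percent) at each of the 37 chromosome ends (x axis), with 1 row per library. The column 4q is bright in most rows, and 9p is bright in the siVRK1 pT120 and siControl ubK119 rows, with 91 and 151 peaks.

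The numbers of peaks per end were alike among libraries to different degrees. Over the 37 ends, Spearman's rho was 0.917 between VRK1 and the siVRK1 input and 0.778 between VRK1 and the siControl input. It was 0.840 and 0.818 between siControl pT120 and these inputs. The ubK119 libraries were most like each other, with a rho of 0.882 between siVRK1 and siControl. The siVRK1 pT120 numbers followed the siControl input (0.813) more closely than the siControl pT120 numbers (0.589). All libraries share the copy number, mappability and base composition of these ends, and these values are descriptions.

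Fewer subtelomeric than other peaks coincided with input peaks in most antibody libraries. For siControl pT120 the share with an input peak was 29.0% (23.3 to 35.2) near the ends, against 43.9% elsewhere. It was 16.7% (14.6 to 18.9) against 26.2% for siVRK1 ubK119, 7.71% (6.47 to 9.10) against 13.6% for siControl ubK119, and 18.8% (16.2 to 21.5) against 23.1% for VRK1, each with the input of its own siRNA. For siVRK1 pT120 this share was higher near the ends, at 11.5% (9.16 to 14.3) against 7.93%. Outside both inputs lay 541 siVRK1 pT120 peaks (84.3%, beside 90.2% elsewhere) and 141 siControl pT120 peaks (59.2% beside 46.7%). Also outside both lay 1017 siVRK1 ubK119 peaks (81.9% beside 71.3%), 1433 siControl ubK119 peaks (86.3% beside 82.4%) and 600 VRK1 peaks (67.4% beside 66.55%, a difference within counting error). Among peaks with a height of at least 20 reads, 93.3% (68.1 to 99.8) of the 15 siControl pT120 peaks overlapped a peak of the siControl input, as did 93.5% of those elsewhere. For the other libraries the share was smaller near the ends, at 53.3% (37.9 to 68.3) of 45 siVRK1 pT120 peaks, beside 82.9% elsewhere, and 67.9% (56.6 to 77.85) of 81 VRK1 peaks, beside 82.6%. It was 24.2% (20.8 to 27.9) of 591 siVRK1 ubK119 peaks, beside 40.1%, and 28.4% (22.2 to 35.1) of 201 siControl ubK119 peaks, beside 55.35%.

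Peaks of all lists were joined where they overlapped, which gave 4639 separate subtelomeric places. Of these 84.1% were called in 1 list only, against 90.15% of the places elsewhere. A place called in siControl ubK119 only was the most frequent kind (1240, 26.7% beside 17.8% elsewhere), followed by siVRK1 ubK119 only (851, 18.3% beside 6.56%). Places called in siVRK1 pT120 only, the most frequent kind elsewhere at 33.3%, made up 9.83% (456) near the ends. Places called in all 7 lists, and so in both inputs, numbered 23 (0.496%, beside 1.02% elsewhere), of which 8 lay at 4p and 5 at 4q. The highest was at the start of chromosome 18 (106764 to 110299, hg19). Its peak height there was 21.5 RPM in siVRK1 and 43.8 RPM in siControl pT120, 50.1 and 29.75 RPM in siVRK1 and siControl ubK119, 55.8 RPM for VRK1, and 57.2 and 44.4 RPM in the siVRK1 and siControl inputs. VRK1 was thus above the siControl input in that place, while siVRK1 pT120 and both ubK119 libraries were below the input of the same siRNA. The siControl pT120 height, at 43.8 RPM, was close to the 44.4 RPM of its input. A further place in all lists, at the start of chromosome 1 (564447 to 570485), is 6038 bp long and was higher in the inputs, at 4.93 and 4.24 RPM, than in any antibody library, where it reached 0.780 to 2.30 RPM. Regions with over 100 reads in an input were kept out of the read comparisons that follow.

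The comparison of siVRK1 with siControl asks how the marks differed after transfection with siVRK1. Reads were counted in regions called with the VRK1 antibody, a list made from neither of the libraries compared. Of the 890 subtelomeric VRK1 regions 877 had at most 100 reads in each input. There pT120 was lower after siVRK1, at 128 RPM against 294 RPM in siControl cells, a ratio of 0.436 (0.420 to 0.453). In the 15394 VRK1 regions of other autosomal DNA the ratio was 0.566 (0.562 to 0.571). The ubK119 mark went the other way, with 412 RPM after siVRK1 and 222 RPM in siControl cells, a ratio of 1.85 (1.803 to 1.904), beside 1.54 (1.53 to 1.55) elsewhere. Both marks thus departed further from 1 near chromosome ends than in the sum of all other autosomal VRK1 regions. Input DNA did too, at 331 RPM in siVRK1 and 267 RPM in siControl cells. Its ratio was 1.24 (1.20 to 1.28), beside 1.10 (1.095 to 1.11) elsewhere. These departures were not limited to the outermost 2 Mb. Regions between 2 and 4 Mb, which count as elsewhere, had a pT120 ratio of 0.336 (0.318 to 0.354). Their ubK119 ratio was 1.93 (1.86 to 1.99) and their input ratio 1.27 (1.22 to 1.32). Divided by the input ratio, the pT120 ratio was 0.352 near the ends and 0.514 elsewhere, and the ubK119 ratio 1.50 and 1.40. For ubK119 this order depended on the regions used. Outside input peaks the values were 1.546 near the ends and 1.447 elsewhere, but with any number of input reads 1.427 and 1.445. For pT120 the value near the ends was the lower in each case, at 0.290 against 0.403 and 0.397 against 0.730.

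Against its own input, pT120 in the subtelomeric VRK1 regions stood at 0.3875 times (0.374 to 0.401) after siVRK1 and at 1.10 times (1.06 to 1.14) in siControl cells. The mark was thus close to input in siControl cells and below input after siVRK1. This was not particular to the ends, since other autosomal VRK1 regions had 0.540 and 1.05 times input. In the 600 subtelomeric regions outside input peaks the pT120 values were 0.3815 (0.362 to 0.402) and 1.31 (1.25 to 1.38). For ubK119 they were 1.24 (1.21 to 1.28) after siVRK1 and 0.832 (0.807 to 0.858) in siControl cells over all 877 regions, and 1.47 (1.415 to 1.53) and 0.951 (0.907 to 0.997) outside input peaks. The siControl level of ubK119 in VRK1 regions was therefore at or below that of input DNA. In other autosomal VRK1 regions ubK119 stood at 1.11 times input after siVRK1 and at 0.792 times in siControl cells.

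Regions called in input DNA, where no antibody is involved in the choice, gave similar ratios. In 1265 such subtelomeric regions the pT120 ratio was 0.481 (0.466 to 0.496), beside 0.613 (0.609 to 0.617) elsewhere, and the ubK119 ratio 1.72 (1.68 to 1.76), beside 1.46 (1.45 to 1.46). The input ratio, from the libraries that chose these regions, was 1.325 beside 1.053. Divided by it, the ubK119 ratio was 1.295 near the ends beside 1.382 elsewhere, and the pT120 ratio 0.363 beside 0.582. The choice of regions acts on this divisor. Near the ends it was 1.76 in siVRK1 input regions and 0.725 in siControl input regions. The divided values therefore cannot compare the ends with other DNA. Lower pT120 and higher ubK119 RPM after siVRK1 were also found in these regions, chosen without the VRK1 antibody. Some of them overlapped VRK1 peaks and were not set apart. Near the ends these were 25.5% of the siVRK1 and 33.7% of the siControl input peaks. The region list mattered more for pT120 in ubK119 regions. In the subtelomeric siVRK1 ubK119 regions pT120 was 125 RPM after siVRK1 and 362 RPM in siControl cells, a ratio of 0.3455 (0.333 to 0.359), against 0.4885 (0.484 to 0.493) elsewhere. In the siControl ubK119 regions the values were 292 and 393 RPM, a ratio of 0.744 (0.722 to 0.766) beside 0.866 (0.860 to 0.872). In siControl pT120 regions ubK119 had a ratio of 1.75 (1.67 to 1.84) beside 1.49 (1.48 to 1.51), and in siVRK1 pT120 regions 0.801 (0.772 to 0.831) beside 0.757 (0.753 to 0.761). Direction thus held for pT120 in every list from which neither pT120 library was taken, while that of ubK119 depended on the siRNA under which the pT120 list was called.

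Single VRK1 regions had few reads, with medians of 3 siVRK1 and 5 siControl pT120 reads and 11 and 7 ubK119 reads, so their ratios scatter. Of 876 subtelomeric regions with a pT120 ratio, 543 (62.0%) were more than 2-fold lower after siVRK1, and the background over all 16853 regions of the list was 51.1%. More than 2-fold higher were 30 (3.43%), with a background of 5.45%. The median ratio was 0.367, beside 0.4785 over all regions. For ubK119, 453 of 877 (51.65%) were more than 2-fold higher, with a background of 38.9%, and 33 (3.76%) more than 2-fold lower, with a background of 4.98%. Its median ratio was 2.02, beside 1.65. For input DNA 219 regions (24.97%) were more than 2-fold higher, with a background of 20.1%, and 46 (5.25%) lower, with a background of 7.17%. The counts of subtelomeric regions lay above the background in the direction of each summed ratio, for input as well as for both marks.

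The size of the difference changed with distance from the end. For pT120 the ratio in VRK1 regions was 0.542 (0.512 to 0.575) within 0.5 Mb, 0.424 (0.394 to 0.456) from 0.5 to 1 Mb and 0.324 (0.301 to 0.349) from 1 to 2 Mb. It was 0.336 (0.318 to 0.354) from 2 to 4 Mb and 0.572 (0.557 to 0.586) from 4 to 8 Mb. The ubK119 ratio was 1.53 (1.47 to 1.60), 2.01 (1.91 to 2.12), 2.14 (2.04 to 2.24), 1.93 (1.86 to 1.99) and 1.47 (1.44 to 1.50) over the same steps. Both ratios were thus nearer to 1 in the outermost 0.5 Mb than between 0.5 and 4 Mb. These differences rested in part on chromosome 4: without 4p and 4q the pT120 ratio was 0.409 (0.374 to 0.447) within 0.5 Mb, 0.352 (0.322 to 0.3855) from 0.5 to 1 Mb and unchanged at 0.324 from 1 to 2 Mb. The ubK119 ratio was then 1.825 (1.72 to 1.94), 2.25 (2.12 to 2.395) and 2.14, so that its highest value lay between 0.5 and 1 Mb. Input ratios ran from 1.11 (1.09 to 1.14) to 1.32 (1.25 to 1.39), and were also highest from 1 to 2 Mb.

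**Figure D3:**
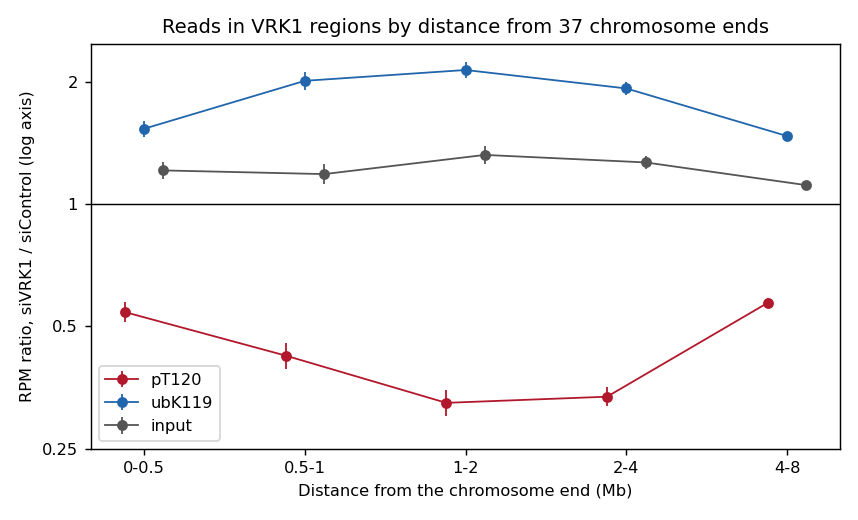
Ratio of RPM in siVRK1 over siControl cells (y axis, log scale) for pT120, ubK119 and input DNA in VRK1 regions, by distance from the 37 chromosome ends (x axis, Mb), with 95% counting intervals. The pT120 points are lowest and the ubK119 points highest from 1 to 2 Mb, at 0.324 and 2.14.

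The direction was the same at all ends with VRK1 regions. The pT120 ratio was below 1 at 35 of 35 ends, with the whole interval below 1 at 34, the exception being 20p with 1 region. The ubK119 ratio was above 1 at 35 of 35 ends, with the whole interval above 1 at 31. Input ratios were above 1 at 29 ends, with the interval above 1 at 19. Among the 18 ends with at least 20 VRK1 regions, the pT120 ratio was lowest at 8q, with 1.86 RPM after siVRK1 and 8.604 RPM in siControl cells, a ratio of 0.216 (0.161 to 0.288). It was 0.246 (0.184 to 0.326) at 19p and 0.259 (0.206 to 0.325) at 7p. The ratios nearest to 1 were those of 4q, with 37.3 and 53.7 RPM and a ratio of 0.695 (0.642 to 0.753), of 1p at 0.665 (0.530 to 0.837) and of 6p at 0.461 (0.379 to 0.560). Without 4q, the end with most VRK1 regions (107), the pT120 ratio over the other ends was 0.378 (0.362 to 0.395) and the ubK119 ratio 2.01 (1.95 to 2.07).

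The order of the ends for ubK119 was nearly the reverse. The highest ubK119 ratios were 2.70 (2.23 to 3.27) at 8q, 2.69 (2.21 to 3.29) at 19p and 2.55 at 10q, and the lowest 1.30 (1.22 to 1.39) at 4q, 1.45 (1.21 to 1.73) at 1p and 1.797 (1.58 to 2.045) at 6p. Over the 18 ends, Spearman's rho between the pT120 and ubK119 ratios was -0.820 and Pearson's r -0.881, a description of ends that share their libraries. With the input ratio, rho was -0.218 for pT120 and 0.0444 for ubK119.

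**Figure D4:**
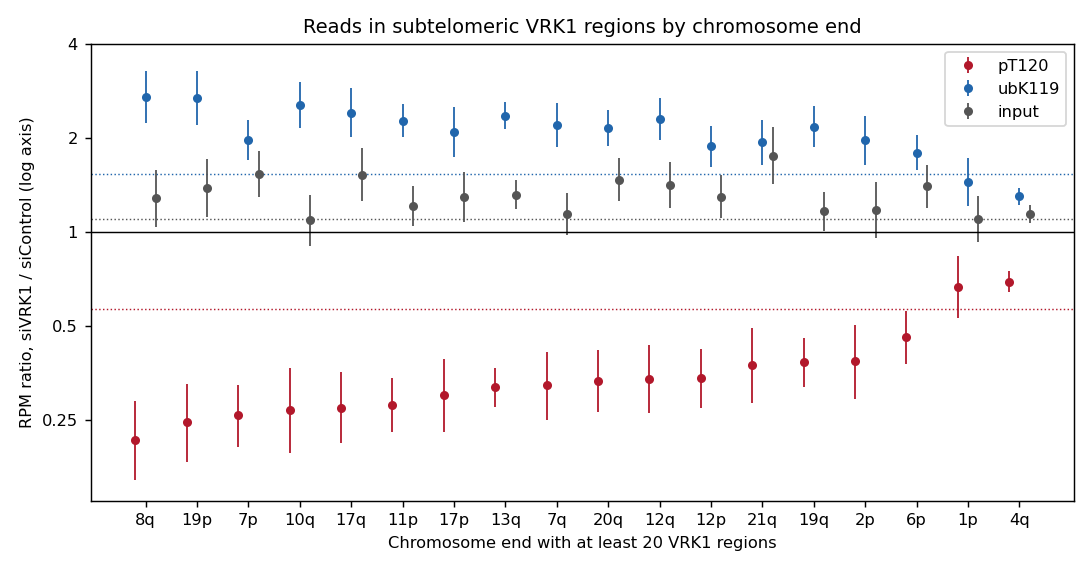
Ratio of RPM in siVRK1 over siControl cells (y axis, log scale) in VRK1 regions of the 18 chromosome ends with at least 20 such regions (x axis, ordered by the pT120 ratio), with 95% counting intervals, and dotted lines at the ratios of other autosomal VRK1 regions. The pT120 points run from 0.216 at 8q to 0.695 at 4q, and the ubK119 points lie above 1 throughout.

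Ends rich in siVRK1 pT120 peaks were looked at in the siControl ubK119 regions, which covered 4q and 9p with 313 regions. There pT120 was 94.9 RPM after siVRK1 and 98.4 RPM in siControl cells, a ratio of 0.964 (0.912 to 1.02). Relative to the input of the same cells this was 0.903 (0.861 to 0.947) and 0.976 (0.921 to 1.03). In the 1340 regions of the other ends the ratio was 0.670 (0.647 to 0.693), with 0.611 (0.593 to 0.630) and 1.13 (1.09 to 1.17) times the inputs. In these regions of 4q and 9p the pT120 level after siVRK1 was thus within counting error of that in siControl cells. In VRK1 regions of the same ends it was lower after siVRK1, with ratios of 0.695 (0.6415 to 0.753) at 4q and 0.594 (0.406 to 0.871) at 9p. Among the 23 ends with at least 20 such regions the pT120 ratio ran from 0.515 (0.433 to 0.613) at 20q to 1.02 (0.823 to 1.27) at 2p.

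Peaks found under one siRNA were seldom found under the other. Of the subtelomeric pT120 peaks, 44 of 642 siVRK1 peaks (6.85%) overlapped a siControl peak and 48 of 238 siControl peaks (20.2%) a siVRK1 peak, beside 5.30% and 38.8% elsewhere. For ubK119, 208 of 1242 siVRK1 peaks (16.75%) and 205 of 1661 siControl peaks (12.3%) were shared, beside 25.9% and 11.6% elsewhere. Most peaks of either mark near the ends were thus called under 1 siRNA only, and so were most input peaks. Of the subtelomeric input peaks, 212 of 975 in siVRK1 (21.7%) and 217 of 520 in siControl cells (41.7%) were shared, beside 21.2% and 25.8% elsewhere. The siVRK1 pT120 peaks overlapped siControl ubK119 peaks more often than they overlapped siControl pT120 peaks: 142 of 642 (22.1%, which are 148 of 1661 or 8.91% of the ubK119 peaks), beside 10.1% elsewhere. Outside input peaks, 70 of 541 siVRK1 pT120 peaks (12.9%) overlapped a siControl ubK119 peak, beside 3.25% elsewhere, and 7 (1.29%, 0.522 to 2.65) a siControl pT120 peak, beside 0.3315%. The siControl ubK119 list was also the longer, with 1661 subtelomeric peaks against 238 for siControl pT120. Counted per peak of these lists the order was the reverse, with 8.91% of the ubK119 and 20.2% of the pT120 peaks overlapping a siVRK1 pT120 peak. Peak lists differ in length, depth and height minimum, so these shares do not by themselves show gain or loss.

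In siControl cells most VRK1 peaks carried neither mark, near the ends as elsewhere. Of 890 subtelomeric peaks, 708 (79.55%, 76.75 to 82.2) overlapped no pT120 and no ubK119 peak, beside 74.85% elsewhere. Another 104 (11.7%) overlapped ubK119 only, beside 9.45%, and 29 (3.26%) pT120 only, beside 3.57%. Both marks were found at 49 (5.51%, 4.10 to 7.21), beside 12.1% elsewhere, which is the class that differed most over all peaks. Outside input peaks this difference was not seen, with both marks at 4 of 600 (0.667%, 0.182 to 1.70), beside 0.753% elsewhere. Neither mark was then found at 92.5%, beside 92.4% elsewhere. With pT120 the overlap was 8.76% (6.99 to 10.8) near the ends and 15.7% elsewhere, and with ubK119 17.2% (14.8 to 19.8) and 21.6%. Outside input peaks the shares near the ends and elsewhere were 1.50% and 2.26% for pT120 and 6.67% and 6.14% for ubK119. Subtelomeric VRK1 peaks overlapped siVRK1 ubK119 peaks more often, in 21.8% of cases, beside 17.6% elsewhere.

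The highest subtelomeric VRK1 peak outside input peaks lay 360.5 kb from the last peak position of chromosome 11 (134154391 to 134154628, hg19) and was called in all 5 antibody libraries. With 36 VRK1 reads it reached 1.12 RPM, 7.55 times (2.71 to 29.2) the 0.149 RPM of siControl input. The highest VRK1 peaks were chosen by VRK1 height and lack of an input peak, so their values over input are descriptions. In the chromosome 11 region pT120 was 0.361 RPM after siVRK1 and 0.870 RPM in siControl cells, a ratio of 0.415 (0.187 to 0.895). There ubK119 was 0.767 and 0.420 RPM, a ratio of 1.83 (0.933 to 3.64), whose interval includes 1. Input gave 2 and 4 reads in siVRK1 and siControl cells. The wider siControl pT120 peak at the same place (134154259 to 134154628) was also the highest of its list. A second place called in all 5 antibody libraries and in no input lay 230.0 kb from the last peak position of chromosome 4 (190813927 to 190814291).

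Of the next highest VRK1 peaks, 1 on chromosome 2 (845039 to 845687) was called with the VRK1 antibody only. It had 43 VRK1 reads, 1.34 RPM against 0.260 RPM of input, 5.16 times (2.30 to 13.6), with 5 and 4 pT120 reads and 14 and 10 ubK119 reads in siVRK1 and siControl cells. The other (chromosome 2, 1107441 to 1107702) had 20 VRK1 reads and was shared with siControl ubK119, at 12 reads after siVRK1 and 25 in siControl cells. Single VRK1 peaks of this chromosome end were thus found with and without a called siControl ubK119 peak. Neither of these regions overlapped a called pT120 peak.

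Among the 6 VRK1 regions outside input peaks with most VRK1 reads that were shared with a siControl mark, that on chromosome 4 (190528158 to 190528582) was shared with pT120. It had 0.167 RPM of pT120 after siVRK1 and 0.822 RPM in siControl cells, a ratio of 0.203 (0.0654 to 0.539), and 0.967 and 0.519 RPM of ubK119, a ratio of 1.86 (1.03 to 3.44). Input reads there numbered 17 and 11. On chromosome 6 (170263812 to 170264194) and chromosome 13 (113646820 to 113647126) VRK1 was shared with ubK119 under both siRNAs, with ubK119 ratios of 2.21 (1.26 to 3.94) and 2.13 (1.16 to 4.01) and pT120 ratios of 0.861 and 0.410, whose intervals include 1. In the remaining regions, on chromosomes 6 (372879 to 373226) and 14 (107154403 to 107154673), the ubK119 ratios of 1.15 and 0.7495 had intervals that include 1.

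The highest peaks of each mark outside input peaks are descriptions, since each list favours its own library. For siVRK1 pT120 all 3 were on chromosome 4. The highest at 4q (190194833 to 190195314) had 1.72 RPM after siVRK1 and 0.628 RPM in siControl cells, with inputs of 0.391 and 0.521 RPM, and 7 and 35 ubK119 reads. The next (190883320 to 190884133) had 1.78 and 0.677 RPM of pT120 and 12 and 36 ubK119 reads. The region at 4p (60607 to 61064) had 1.14 and 0.870 RPM and inputs of 0.631 and 0.558 RPM, so it stood 1.802 times (1.04 to 3.21) and 1.56 times (0.742 to 3.33) above its inputs. At both 4q regions ubK119, which did not choose them through its own list, was lower after siVRK1, with ratios of 0.2698 (0.101 to 0.617) and 0.4497 (0.213 to 0.884), although both regions were also called in the siControl ubK119 list.

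For siControl pT120, the other high peaks lay at 4p (54992 to 55336) and at 13q (113506845 to 113507216). In the region at 13q, 3 siVRK1 and 20 siControl pT120 reads stood against 16 and 4 ubK119 reads and 7 and 4 input reads. Its ubK119 ratio was 5.40 (1.74 to 22.2). At 4p there were 13 siVRK1 and 20 siControl pT120 reads and 5 and 14 ubK119 reads, a ubK119 ratio of 0.482 (0.136 to 1.42) with an interval that includes 1.

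For siVRK1 ubK119 the highest were at 8p (751891 to 752287), 20q (60945679 to 60946297) and 10q (134865590 to 134865967). They had 48, 71 and 35 ubK119 reads after siVRK1 and 23, 19 and 6 in siControl cells. The pT120 reads, which did not choose these regions, were 3, 5 and 2 after siVRK1 and 13, 17 and 4 in siControl cells. The pT120 ratios were 0.1325 (0.0242 to 0.482) at 8p and 0.169 (0.0487 to 0.477) at 20q, while that at 10q had an interval (0.026 to 2.003) that includes 1. For siControl ubK119 the highest were at 7q (157658812 to 157659338), 14q (106800956 to 106801408) and 13q (113619228 to 113619507), with 23, 16 and 14 reads after siVRK1 and 46, 36 and 29 in siControl cells. Their pT120 ratios of 0.656, 0.646 and 0.738 had intervals that include 1.

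**Figure D5:**
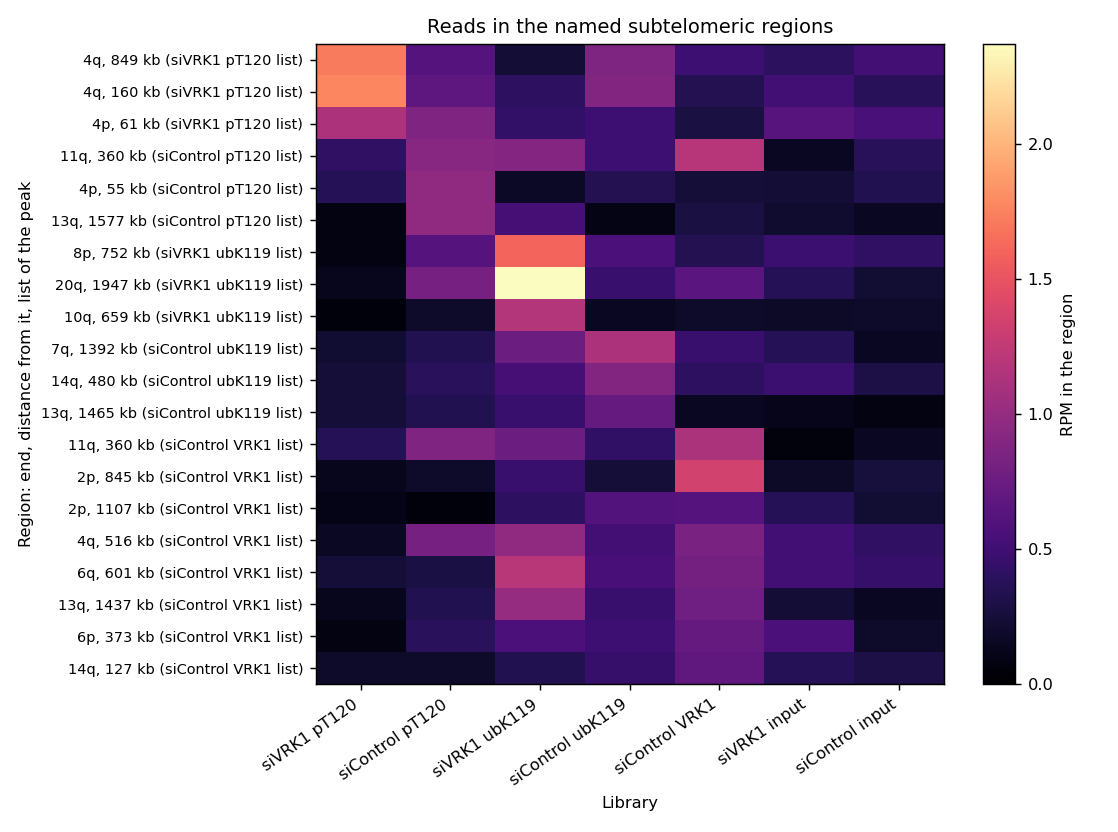
RPM (colour) of each library (x axis) in the highest regions of each antibody list and the VRK1 regions shared with a siControl mark (y axis, given as chromosome end, distance from it in kb and list of the peak). The brightest cell is that of siVRK1 ubK119 at 20q, at 2.37 RPM. Not every region is brightest in the library of its list. At 6q, in the VRK1 list, siVRK1 ubK119 had 1.20 RPM and VRK1 0.8115 RPM. The region 360.5 kb from 11q is brightest for VRK1 in both rows, at 1.12 RPM in the VRK1 list.

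No VRK1 region outside input peaks reached 40 pT120 reads in siVRK1 and siControl cells together, so none is ranked by its pT120 ratio. For ubK119, 18 of 600 did. The highest ubK119 ratios among them were at 13q (114563978 to 114564531), with 35 reads after siVRK1 and 10 in siControl cells and a ratio of 4.72 (2.29 to 10.7), at 16p (1314585 to 1315039), with 31 and 10 reads and 4.18 (1.998 to 9.56), and at 19p (513944 to 514797), with 58 and 20 reads and 3.91 (2.32 to 6.87). At 13q the pT120 reads were 1 after siVRK1 and 23 in siControl cells, a ratio of 0.025 (0.000606 to 0.154), while the inputs had 20 and 16 reads. At 19p they were 11 and 24, a ratio of 0.263 (0.116 to 0.558), with 40 and 21 input reads. At 16p they were 3 and 5, and the interval of the ratio, 0.3445 (0.0535 to 1.77), includes 1. The lowest ubK119 ratios were 0.695 (0.363 to 1.28) and 1.09 (0.583 to 2.01) at a pair of neighbouring 4q regions (190816113 to 190816321 and 190813927 to 190814142) and 1.48 (0.782 to 2.81) at 12p (256165 to 256717), each with an interval that includes 1. Their pT120 ratios were 1.48 (0.588 to 4.18), 0.574 (0.269 to 1.23) and 0.574 (0.202 to 1.63), whose intervals also include 1.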

How the data were processed

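Lysates of HT1080 nuclei, fixed and sonicated, were precipitated with 3 antibodies, and per the labels' protocols libraries had 20 PCR cycles and 36 sequencing cycles. Tools named in the submitters' processing notes are Bowtie 0.12.8, CASAVA 1.8.2 and Partek, with the build hg19 and no roles. Per the file headers, the authors listed peaks by library, each with its length, its height as a signal (the most extended reads in a window), the height as RPM, a Mann-Whitney p-value (not used), the raw count of reads of all 7 libraries in the region and the percent of it covered by peaks of each library. Caller settings, duplicate handling, use of input as control and whether positions count from 0 or 1 could not be read from the labels or headers. Groups were taken from the sample titles.

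Library totals were computed from the deposited heights and RPM. Overlap meant at least 1 bp by the deposited percent of coverage, which differed from overlap by position in 0 of 37008 calls. Densities used 74 Mb of end windows and 2716.1 Mb of other autosomal sequence between first and last peak, gaps included. Ratios of RPM have exact conditional binomial intervals, shares exact Clopper-Pearson intervals and densities exact Poisson intervals. Read comparisons left out regions with over 100 reads in an input. The interval calculation was tested on simulated data. Python 3.11.15, pandas 2.3.3 and scipy 1.17.1 were used.

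Named peaks are the 3 highest of each antibody list outside both inputs, the 6 VRK1 regions with most reads shared with a siControl mark, and, for ends and single regions, the 3 with the most and fewest peaks or the highest and lowest ratio (ends with at least 20 and regions with at least 40 reads). Places in all lists and the ends 1q, 3p, 4q, 9p, 15q, 18p and 19q were singled out after their values were seen. The members and lists were chosen with earlier results of these data known. The reference tables at hand are of another build, so genes and sequences are not given.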

Additional observations from a re-analysis of the deposited data

How the results depend on the processing

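No paired analysis was possible because there was 1 library per antibody and siRNA, and no replicate could be left out. Density ratios at a height of at least 20 reads were 1.075 for siVRK1 and 0.647 for siControl pT120, which turned round, 1.49 for VRK1, and 0.988 for the siControl input, which also turned round. In a window of 1 Mb they were 0.784 for siVRK1 and 1.84 for siControl pT120, 3.36 for siVRK1 ubK119, 2.39 for VRK1, 2.12 for the siVRK1 input and 1.48 for the siControl input. Without 4q and 9p, an alternative chosen after seeing the data, they were 0.361 for siVRK1 pT120, 1.99 for siControl ubK119, 1.87 for VRK1, 1.64 for the siVRK1 input and 0.914 for the siControl input, which turned round. The cause of these changes was not tested. Values by distance without 4q, or without 4p and 4q, were also added after seeing the data and stand beside their results. Shares overlapping input fell to 7.63% (siVRK1 pT120), 13.8% (siVRK1 ubK119), 5.72% (siControl ubK119) and 14.04% (VRK1) when 50% of the peak had to be covered, and were 53.3% (siVRK1 pT120), 93.3% (siControl pT120), 24.2% (siVRK1 ubK119), 28.4% (siControl ubK119) and 67.9% (VRK1) at 20 reads. VRK1 peaks overlapped pT120 in 6.404% and ubK119 in 12.8% at 50% coverage, and in 1.50% and 6.67% outside input peaks.

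The ratios of siVRK1 over siControl in VRK1 regions kept their direction in all alternatives run. For pT120 they were 0.488 with any number of input reads, 0.380 outside input peaks, 0.481 in regions called in either input, 0.493 in a window of 1 Mb and 0.378 without 4q. For ubK119 they were 1.75, 2.02, 1.72, 1.72 and 2.01 in the same order. The input ratio was 1.31 outside input peaks, 1.33 in regions called in either input and 1.20 in a window of 1 Mb. Low counts limit single regions, whose intervals are wide, and intervals leave out any spread between cultures, which was not measured.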
